A study of Rattus norvegicus with 8 samples.

Results

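The genes described here are 8 myelin genes of the rat, *Mbp*, *Mog*, *Mag*, *Cnp*, *Mobp*, *Cldn11*, *Mal* and *Opalin*. They were found by their NCBI GeneID among the 22601 genes measured in every library. All 8 were found, and all 8 were among the 15593 genes tested, those whose FPKM averaged 0.1 or more. FPKM is the number of sequenced fragments per kilobase of transcript, scaled to the mapped fragments of the library. It allows for transcript length and library size, but remains relative to the other genes of the library.

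RNA was sequenced from the hippocampus of wild-type Wistar rats of 180 to 220 g, with 1 library per rat. The Con. group (n = 3) received vehicle. The PTZ group (n = 3) received pentylenetetrazole, a blocker of GABA-A receptors that provokes seizures, together with vehicle. The Q808 group (n = 2) received pentylenetetrazole and Q808, an anticonvulsant compound known by its code name. Per the study's methods, rats were kindled by repeated injections of pentylenetetrazole below the convulsive dose, Q808 was given by mouth once kindling was complete, and every rat of the PTZ and Q808 groups had a further injection of pentylenetetrazole before its tissue was taken. The Q808 group therefore differed from the PTZ group by the compound, and no group received Q808 alone. The hippocampus was dissected from both sides after the meninges were removed, and its RNA came from all cell types together. The labels give no age.

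Myelin is the sheath of stacked membrane that oligodendrocytes wrap around axons, which speeds the conduction of impulses and feeds the axon it surrounds. In the hippocampus it is concentrated in the white matter tracts that border the tissue, the alveus and the fimbria, and is sparse in the layers of cell bodies, while the striatum is crossed by myelinated fibre bundles of the internal capsule. The proteins of the sheath fall into several roles. MBP and MOBP lie on the inner face of compact myelin and hold the membrane layers together. CLDN11 forms the tight junctions between the turns of the sheath, and MAL is a lipid-raft protein of the myelin membrane. MAG and MOG are immunoglobulin-family proteins of the sheath's inner and outer surface, OPALIN is a transmembrane glycoprotein of oligodendrocytes, and CNP is an enzyme of the non-compacted cytoplasmic channels.

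The study labelled all libraries as hippocampus, and they fell into 2 sets by genes of another region. The mean of 6 striatal neuron genes, among them *Drd1*, *Drd2* and *Adora2a*, as log2(FPKM + 0.1), reached 6.69 (Con.-3), 5.49 (PTZ-3) and 5.37 (Q808-1), and lay between 0.60 and 1.64 in Con.-1, Con.-2, PTZ-1, PTZ-2 and Q808-2. The gap between the sets was 3.73 and the next widest gap was 1.19. The 3 libraries are called striatum-rich and the other 5 striatum-poor; the sets are not groups of the study. Markers of dentate granule cells, which define the hippocampus, had a mean of 1.31 to 1.68 in the striatum-rich and 2.93 to 3.41 in the striatum-poor libraries. Those of CA pyramidal cells had 0.87 to 1.56 and 2.13 to 2.36. By the calls defined below, 4 of 5 dentate genes and 3 of 4 CA genes were lower in the striatum-rich libraries. Of the rest, 1 dentate gene was not called and 1 CA gene was called higher. Of all tested genes, 19.1% were called in either direction. The CA genes *Fibcd1* and *Spink8* averaged only 0.14 and 0.19 FPKM. Each treatment group held 1 striatum-rich library, which was 1 of 3 in the Con. and PTZ groups and 1 of 2 in the Q808 group.

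The bases in front of the transcription starts of these genes were read for motifs of the factors that act in oligodendrocytes. RefSeq promoters on the GRCr8 build were at hand for 7 of the 8 genes, 8 promoters in all, and the 250 bases upstream of the start were searched on both strands. The Sox-type motif ACAAAG, read as CTTTGT on the other strand, was in 5 of the 8 promoters, those of *Cnp*, *Mag*, *Mobp* and *Opalin* and 1 of *Mbp*, and in 16.3% of all 33469 rat promoters of the same length. The upstream stretches of 4 of these genes are shown because they hold the motif, 5' to 3' on the strand of the gene, with each match in capitals.
Mobp (GRCr8 chr8:128746982-128747231, plus strand): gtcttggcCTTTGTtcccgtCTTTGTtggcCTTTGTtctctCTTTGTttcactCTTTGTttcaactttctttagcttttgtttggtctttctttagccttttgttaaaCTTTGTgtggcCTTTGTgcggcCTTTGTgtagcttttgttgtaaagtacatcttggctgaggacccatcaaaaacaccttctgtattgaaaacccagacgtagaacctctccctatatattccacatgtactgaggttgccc
Opalin (GRCr8 chr1:249858191-249858440, minus strand): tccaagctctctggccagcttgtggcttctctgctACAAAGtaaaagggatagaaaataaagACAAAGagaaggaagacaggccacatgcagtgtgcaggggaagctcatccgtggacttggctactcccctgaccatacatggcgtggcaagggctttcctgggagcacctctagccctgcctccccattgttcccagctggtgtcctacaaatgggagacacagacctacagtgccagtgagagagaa
Mag (GRCr8 chr1:95291045-95291294, minus strand): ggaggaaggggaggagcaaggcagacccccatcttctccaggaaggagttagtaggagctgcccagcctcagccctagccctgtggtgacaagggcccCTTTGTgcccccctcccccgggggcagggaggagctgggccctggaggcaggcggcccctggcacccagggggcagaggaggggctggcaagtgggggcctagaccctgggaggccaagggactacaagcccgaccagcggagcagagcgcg
Cnp (GRCr8 chr10:86011254-86011503, plus strand): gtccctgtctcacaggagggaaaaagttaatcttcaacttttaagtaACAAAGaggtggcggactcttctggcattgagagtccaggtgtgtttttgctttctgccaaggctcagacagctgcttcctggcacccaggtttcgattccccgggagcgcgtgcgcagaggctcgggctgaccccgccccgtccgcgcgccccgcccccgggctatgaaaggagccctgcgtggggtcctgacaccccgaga
*Mobp* held 8 matches, at 242 to 120 bases before the start, many of them at a short, near-regular spacing. *Opalin* held 2, at 215 and 188 bases, *Mag* held 1 at 152 bases and *Cnp* 1 at 203 bases. The Myrf-type motif CTGGCAC was in 4 of the 8 promoters (*Cnp*, *Mag*, *Mal*, *Opalin*) and in 3.78% of all promoters, and its variant CTGGTAC was in 1 (*Cldn11*) and in 1.78% of all. The E-box CANNTG was in 6 of the 8 and in 65.5% of all. The motifs are different words, and their matches may overlap in part. A match describes the letters of the window, not a bound site, and no binding was measured here. Whether the motifs bear on the levels of these genes between libraries was not tested.

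*Mbp*, the gene of myelin basic protein (GeneID 24547), had the highest level of the 8 in every library. In the Con. group it was at 2198, 1241 and 3316 FPKM, in the PTZ group at 2235, 1536 and 3536 FPKM, and in the Q808 group at 7875 and 1691 FPKM. Q808-1 was thus far above all other libraries and Con.-2 was the lowest, and the other Q808 library lay within the range of the Con. and PTZ groups. *Mobp*, its partner in compact myelin (25037), was at 195, 109 and 303 FPKM in Con., at 201, 141 and 290 FPKM in PTZ and at 645 and 176 FPKM in Q808. The order of the libraries was the same as for *Mbp* except that PTZ-3 and Con.-3 changed places.

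*Cldn11* (84588) was at 221, 128 and 311 FPKM in the Con. group, at 217, 147 and 322 FPKM in the PTZ group and at 499 and 162 FPKM in the Q808 group. *Mal* (25263) was at 161, 115 and 306 FPKM in Con., at 161, 132 and 271 FPKM in PTZ and at 322 and 137 FPKM in Q808. For *Mal* the highest library, Q808-1, was close to Con.-3, at 1.05 times its level, where *Mbp* was at 2.38 times.

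*Cnp*, the enzyme (25275), was at 236, 172 and 417 FPKM in the Con. group, at 249, 188 and 403 FPKM in the PTZ group and at 618 and 199 FPKM in the Q808 group. *Mag* (29409) was at 84.6, 58.0 and 167 FPKM in Con., at 94.9, 74.2 and 138 FPKM in PTZ and at 233 and 75.2 FPKM in Q808. These genes of the uncompacted parts of the sheath followed the same libraries up and down as those of compact myelin.

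*Mog* (24558) was at 34.3, 20.3 and 57.5 FPKM in the Con. group, at 34.1, 26.6 and 54.4 FPKM in the PTZ group and at 94.5 and 31.5 FPKM in the Q808 group. *Opalin* (361757) was at 54.6, 29.2 and 96.6 FPKM in Con., at 46.7, 33.2 and 94.5 FPKM in PTZ and at 117 and 46.7 FPKM in Q808. In both genes the third library of Con. and of PTZ stood above the other libraries of its group, and the second was the lowest.

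**Figure D1:**
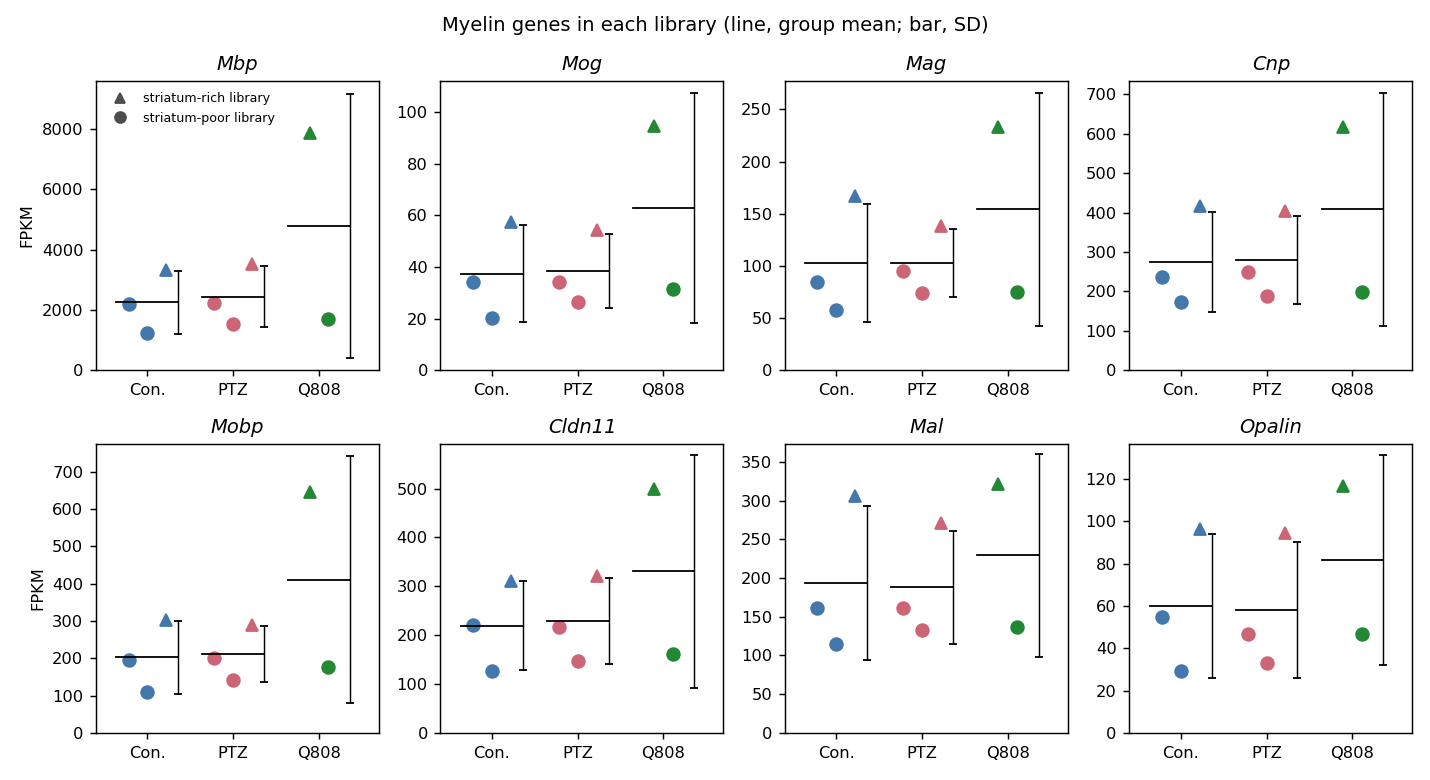
FPKM of the 8 myelin genes (vertical axes, linear from 0) in each library of the Con., PTZ and Q808 groups, with 1 point per rat, a line at the group mean and a bar of 1 SD. The 3 triangles are the striatum-rich libraries, and in each gene all 3 sit above the 5 circles of the striatum-poor libraries.

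The ranking of the libraries was nearly one and the same for the 8 genes. Q808-1 was the highest library and Con.-2 the lowest for 8 of 8. Below the striatum-rich libraries, Con.-1 and PTZ-1 came next, then Q808-2, PTZ-2 and Con.-2, in 8 of 8 genes. Con.-1 exceeded Con.-2 in 8 of 8 genes, by 1.37-fold (*Cnp*) to 1.87-fold (*Opalin*), and PTZ-1 exceeded PTZ-2 in 8 of 8, by 1.21-fold (*Mal*) to 1.48-fold (*Cldn11*). The highest library was 2.79 times (*Mal*) to 6.35 times (*Mbp*) the lowest. In bulk RNA, fewer oligodendrocytes and less myelin RNA per oligodendrocyte cannot be told apart.

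The order of the genes by level per transcript length was *Mbp*, *Cnp*, *Mobp*, *Cldn11*, *Mal*, *Mag*, *Opalin* and *Mog*, by their mean FPKM over the libraries. *Mbp* was 7.20 to 12.8 times *Cnp* within a library. *Cnp* was above *Mobp* in 7 of 8 libraries, and *Mobp* was above *Cldn11* in only 2 of 8, so *Mobp* and *Cldn11* were not separated beyond their spread. Each of the remaining steps, from *Cldn11* down to *Mog*, held in 8 of 8 libraries. The 8 genes together made up 0.496% to 0.850% of the summed FPKM of all genes in the striatum-poor libraries and 1.27% to 2.66% in the striatum-rich ones, with the highest share in Q808-1. *Mbp* was the most abundant of all genes in each striatum-rich library and ranked 3 to 8 in the others.

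The first question was whether pentylenetetrazole kindling went with a change of the myelin genes. None of the 8 was called in PTZ against Con., where a call is an unadjusted p under 0.05 in limma and a fold change over 1.5, which 2.53% of all tested genes reached. *Mbp* was at 2252 ± 1039 FPKM (SD, n = 3) in Con. and at 2436 ± 1015 FPKM (SD, n = 3) in PTZ, a log2 difference of 0.14 with a 95% interval of -0.90 to 1.18. The log2 differences of the others lay between -0.02 (*Opalin*) and 0.12 (*Mobp*), and the median of the 8 was 0.08 beside -0.04 for all genes. The unadjusted p of limma was between 0.757 and 0.987 and the adjusted p was 0.999 for each. The narrowest of the 95% intervals, that of *Cnp*, ran from -0.86 to 0.97 on the log2 scale, so true differences within those bounds are not excluded. Con. and PTZ libraries overlapped in all 8 genes, and did not overlap in 9.15% of all tested genes. Within the 4 striatum-poor libraries of these groups, the PTZ-minus-Con. log2 difference was -0.02 (*Opalin*) to 0.26 (*Mag*), and between Con.-3 and PTZ-3, 1 library each, it was -0.27 (*Mag*) to 0.09 (*Mbp*).

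The second question was whether Q808 treatment of kindled rats changed the same genes. Compared with the PTZ group, none of the 8 was called in the Q808 group, where 1.92% of all genes were called. *Mbp* was at 4783 ± 4373 FPKM (SD, n = 2) in Q808, a log2 difference from PTZ of 0.67 (95% interval -1.10 to 2.43). *Mobp* had the highest difference at 0.74 (-0.66 to 2.14) and *Mal* the lowest at 0.23 (-0.87 to 1.32), and the median of the 8 was 0.45 beside 0.10 for all genes. The unadjusted p was 0.247 to 0.633 and the adjusted p of limma 0.952 to 0.958. Compared with the Con. group, none of the 8 was called either, where 3.46% of all genes were, and the log2 differences were 0.23 (*Mal*) to 0.86 (*Mobp*), with an unadjusted p of 0.254 to 0.681 and an adjusted p of 0.901 to 0.943. The Q808 comparisons share the same Q808 libraries and the PTZ comparisons the same PTZ libraries, so these values are not independent of each other.

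The positive differences of the Q808 group came with 1 of its libraries. Q808-1 exceeded PTZ-3, the PTZ library of its set, in 8 of 8 genes, by a log2 difference of 0.25 (*Mal*) to 1.16 (*Mbp*). Q808-2 lay between PTZ-1 and PTZ-2 in 8 of 8 genes, and its log2 difference from their mean was -0.16 (*Mag*) to 0.24 (*Opalin*). Without Q808-2, 6 of the 8 genes were called against PTZ (not *Mal* and *Opalin*) and 2 against Con. (*Mbp* and *Mobp*), where 8.34% and 11.5% of all genes were called in the same fits, and without Q808-1 the log2 differences of the 8 from PTZ were all negative, with a median of -0.39. A lone library is assumed there to vary like those of the other group. Without Q808-2 the Q808 group was Q808-1 alone, which is striatum-rich, while most PTZ and Con. libraries are striatum-poor. Treatment and set cannot be told apart in that fit. With replicate number as a block, *Opalin* was called against PTZ (log2 difference 0.91, adjusted p = 0.385 in limma), 1 of the 8 beside 12.1% of all genes, and *Mog*, *Mag*, *Mobp* and *Opalin* against Con. (log2 difference 0.88 to 1.21, adjusted p = 0.569), 4 of the 8 beside 6.9% of all genes. The share for PTZ is near that of all genes and is not a result about the myelin genes. The Q808 group has no library numbered 3, so PTZ-3 and Con.-3 do not enter these block differences. The PTZ and Con. libraries that remain are striatum-poor, while Q808-1 is striatum-rich. Treatment and set therefore cannot be told apart in these calls. With the striatum list mean as a covariate, *Mobp* was called against Con., as were 6.15% of all genes. With the striatum set as a covariate, 0 of the 8 were called in either Q808 comparison. The median log2 difference of the 8 was then 0.25 against PTZ and 0.30 against Con., compared with 0.45 and 0.48 in the main fits. The fits with a covariate used all 8 libraries, so they also differ from the main fits in their libraries.

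**Figure D2:**
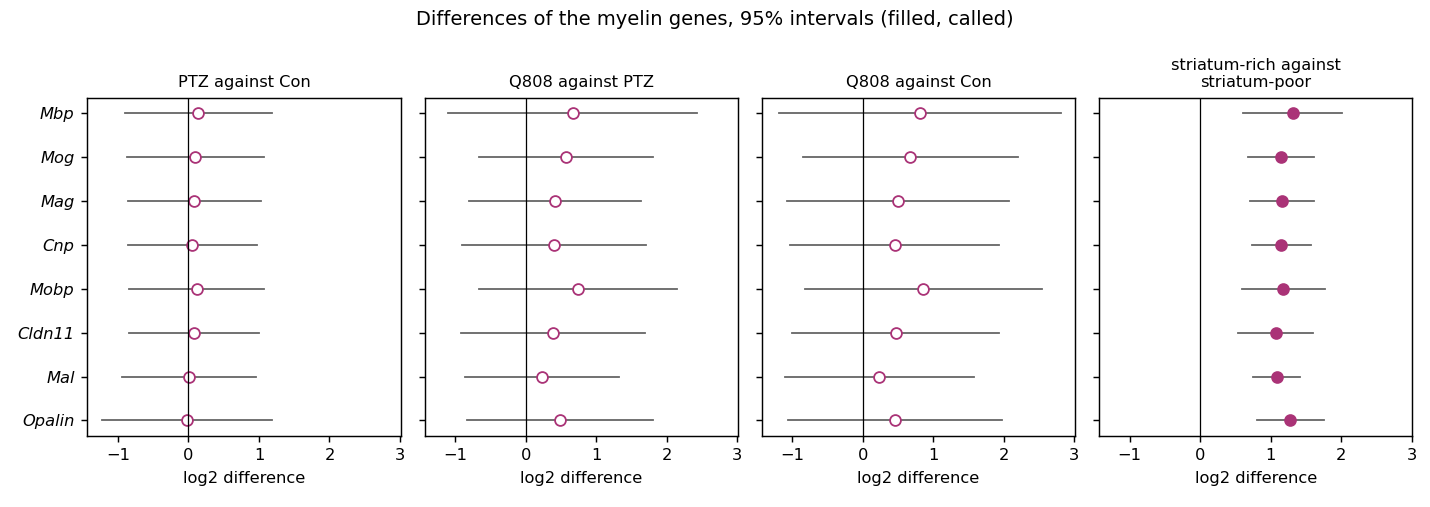
Log2 difference of each myelin gene (points) with its 95% interval (lines) in limma for PTZ against Con., Q808 against PTZ, Q808 against Con. and striatum-rich against striatum-poor libraries; filled points were called. The intervals include 0 for all 8 genes in each treatment comparison and lie above 0 for all 8 between the sets, from 0.54 at the lowest bound (*Cldn11*) to 2.01 at the highest (*Mbp*).

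The third comparison was between the striatum-rich and the striatum-poor libraries, with treatment group as a term in the fit. All 8 genes were called, each higher in the striatum-rich set, while 19.1% of all tested genes were called in either direction and 11.7% as higher. *Mbp* was at 4909 ± 2571 FPKM (SD, n = 3) in the striatum-rich and at 1780 ± 430 FPKM (SD, n = 5) in the striatum-poor libraries, a log2 difference of 1.31 ± 0.30 (SE) in limma. *Mal*, with the smallest error, was at 299 ± 26.1 FPKM (SD, n = 3) and 141 ± 19.7 FPKM (SD, n = 5), a log2 difference of 1.08 ± 0.15 (SE). *Opalin* was at 103 ± 12.4 and 42.1 ± 10.5 FPKM, with a log2 difference of 1.28 ± 0.21 (SE), and *Cldn11* had the smallest difference at 1.07 ± 0.23 (SE).

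The sets did not overlap in any of the 8 genes, with the lowest striatum-rich library at 1.41 times (*Cldn11*) to 1.73 times (*Opalin*) the highest striatum-poor one. Of all tested genes, 15.2% had every striatum-rich library above every striatum-poor one. The ratio of the set means was 2.12 (*Mal*) to 2.76 (*Mbp*). The adjusted p was under 0.05 for all 8, from 0.00289 (*Mal*) to 0.0248 (*Mbp*), as it was for 15.8% of all genes, and the median log2 difference of the 8 was 1.16 beside 0.09 for all genes. Over all genes 1819 were called higher and 1155 lower, and after quantile normalization 1333 and 1385. The 8 genes were called in the same direction under that scaling and under median ratio scaling. Without Q808-1 the log2 differences were 0.87 (*Cldn11*) to 1.27 (*Opalin*), all 8 genes were still called as higher (11.3% of all genes), and 5 kept an adjusted p under 0.05 (8.68% of all genes), the exceptions being *Mbp*, *Mobp* and *Cldn11*. Without Q808-2 the same 5 did so (8.83% of all genes), since the Q808 term then takes up the other library.

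Marker lists of other cell types were compared between the sets in the same fit. Of the 15593 tested genes, 1819 (11.7%) were called higher and 1155 lower. The neuron list (*Rbfox3*, *Snap25*, *Syt1*, *Tubb3*) had a mean of 6.85 to 7.46 in the striatum-rich and 7.73 to 7.97 in the striatum-poor libraries, with the lowest value in Q808-1, and 2 of its 4 genes were called lower. The mean of the 6 astrocyte genes overlapped between the sets, at 5.80 to 6.31 and 5.83 to 6.12. None of the 6 was called, and 1 had an adjusted p under 0.05 in limma. Of the 6 microglial genes 1 was called higher and of the 4 endothelial genes 2 were, and both lists had their highest mean in Q808-1, at 4.89 and 4.57. The choroid plexus list had 4 of 5 genes called lower, 0 of them with an adjusted p under 0.05 in limma. Its mean was 1.23 to 3.00 in the striatum-rich and 1.89 to 6.41 in the striatum-poor libraries. Con.-3 and Q808-1 were below the striatum-poor libraries of their groups, while PTZ-3 at 3.00 was above PTZ-1 at 2.46 and PTZ-2 at 1.89. Of the 4 meningeal genes 1 was called lower. The microglial and meningeal calls are 1 gene each and are not read as a result about those lists. The part of dissected tissue and of cell composition in the myelin values was not tested.

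**Figure D3:**
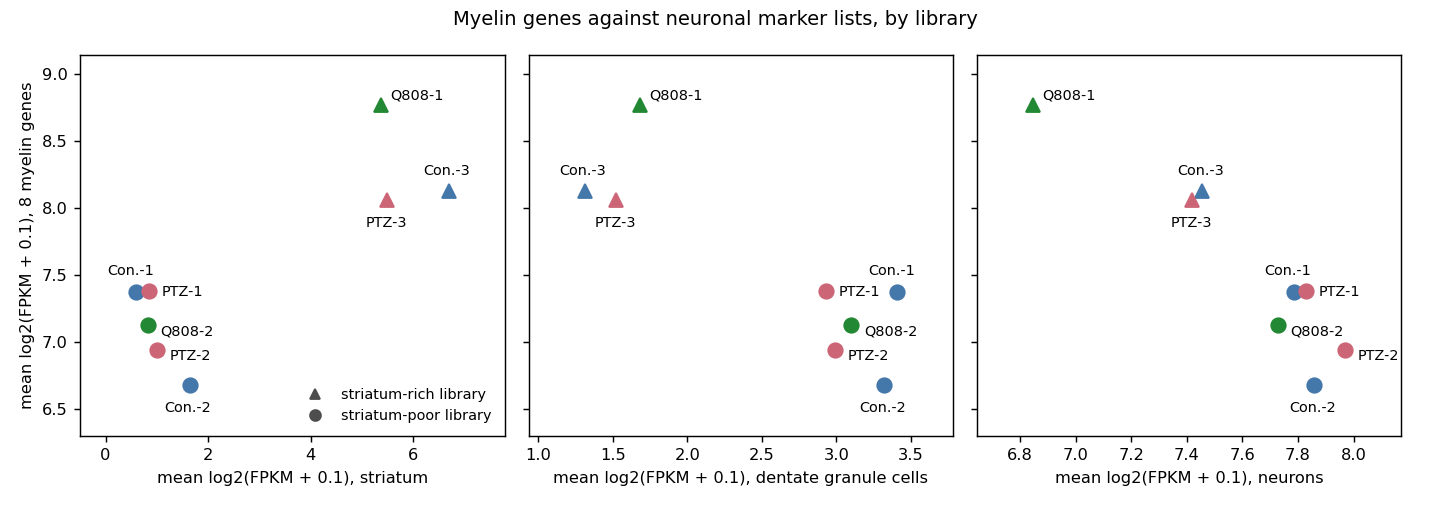
Mean log2(FPKM + 0.1) of the 8 myelin genes in each library (vertical axes) against that of the striatum, dentate granule cell and neuron lists (horizontal axes), with Con. in blue, PTZ in red and Q808 in green. The 3 striatum-rich libraries (triangles) have a myelin mean of 8.06 to 8.77 and the 5 striatum-poor ones (circles) of 6.68 to 7.38; within the striatum-rich set the library with the highest myelin mean, Q808-1, has the lowest striatum mean, 5.37.

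Within the sets the level of the striatum genes did not rank the libraries as the myelin genes did. Con.-3 had the highest striatum mean of its set but was below Q808-1 in all 8 myelin genes, and Con.-2 had the highest striatum mean of the striatum-poor libraries and the lowest level of all 8 myelin genes.

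The 8 genes were then set relative to their own mean within each library. The spread of these relative values over the libraries (SD on the log2 scale) was 0.06 (*Mog*) to 0.20 (*Mbp*), where the spread of the levels was 0.59 (*Mal*) to 0.85 (*Mbp*). Most of the variation was therefore shared by the 8 genes. The exception was Q808-1. There *Mbp* stood 4.18 above the mean of the 8, compared with 3.57 to 3.75 in the other 7 libraries, and *Mobp* 0.56 above it, compared with 0.09 to 0.33. *Mal* stood at -0.44 in Q808-1, compared with -0.05 to 0.17. *Mbp* made up 75.7% of the summed FPKM of the 8 genes in Q808-1 and 66.3% to 69.2% in the others. This is 1 library, so the difference has no replicate check. *Opalin* had another pattern, with its highest relative values in PTZ-3 and Con.-3 (-1.50 and -1.53) and its lowest in Q808-1 and PTZ-2 (-1.90 and -1.88).

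**Figure D4:**
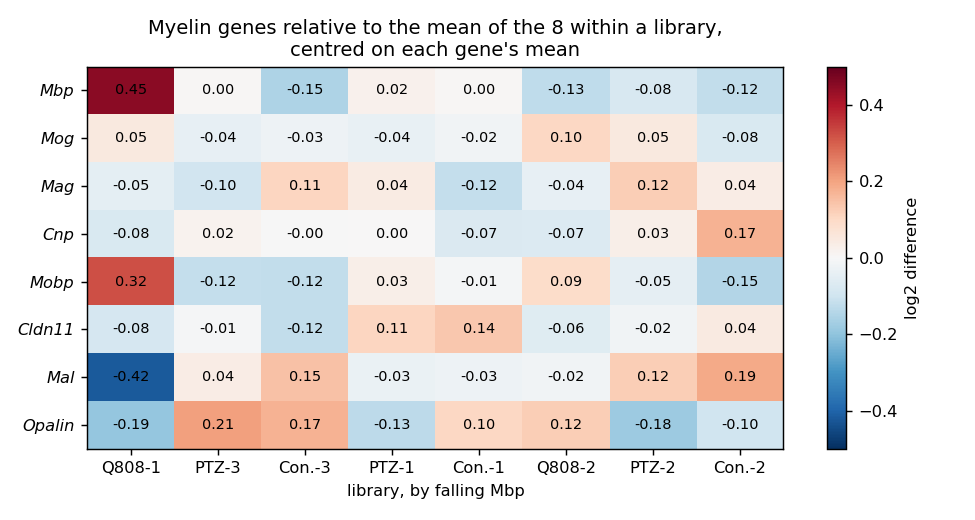
Level of each myelin gene relative to the mean of the 8 within a library, on the log2 scale, with each gene's mean over the libraries subtracted, for the 8 libraries from the highest *Mbp* (left) to the lowest (right). Red cells are above and blue cells below the gene's mean; in Q808-1 *Mbp* was at 0.45 and *Mobp* at 0.32 while *Mal* was at -0.42, and no other cell passed 0.21 in size.

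Further genes of the oligodendrocyte lineage were examined as 4 lists, and none of their genes was called lower in the striatum-rich libraries. Among 28 further myelin and mature oligodendrocyte genes, of which 27 were found and 26 tested, 23 were called higher, beside 11.7% of all genes. The adjusted p of limma was under 0.05 for 22, and the median log2 difference of the list was 1.08. *Klk6*, a secreted protease of oligodendrocytes, rose from 25.3 ± 7.94 to 70.4 ± 28.5 FPKM (log2 difference 1.40, adjusted p = 0.0177 in limma). *Gjb1* and *Gjc3*, which encode connexins, rose by 1.38 and 1.35 on the log2 scale, and *Ermn*, a cytoskeletal protein of late oligodendrocytes, by 1.37. The 3 not called included *Tubb4a*, a tubulin that neurons also express (log2 difference 0.52, 934 against 648 FPKM), and *Omg*, a glycoprotein of oligodendrocytes and neurons (0.31, 111 against 90.3 FPKM). All 26 tested genes had an unadjusted p under 0.05 in limma, and the 3 not called were higher by less than 1.5-fold.

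Of the 6 enzymes of myelin lipids, 5 were called higher, beside 11.7% of all genes, with a list median of 1.01. *Fa2h*, which hydroxylates the fatty acids of myelin sphingolipids, rose by 1.30 on the log2 scale, and *Ugt8*, which makes galactosylceramide, by 1.19. *Gal3st1*, which sulfates it to sulfatide, rose by 1.07 and the fatty acid elongase gene *Elovl1* by 0.95. *Aspa*, whose enzyme releases acetate from N-acetylaspartate, was not called (log2 difference 0.47, adjusted p = 0.205 in limma).

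Of the 8 transcription factors of the lineage, 7 were called higher, beside 11.7% of all genes, with a median of 1.08. The adjusted p of limma was under 0.05 for 6 of the 8. *Nkx6-2* rose from 9.70 ± 2.88 to 26.3 ± 3.31 FPKM (log2 difference 1.45), *Nkx2-2* by 1.19 and *Sox8* by 1.15 on the log2 scale. *Myrf*, the regulator that switches on the myelin genes, rose by 1.10, from 26.7 ± 4.42 to 60.3 ± 18.6 FPKM. *St18* was at 3.58 ± 0.61 FPKM in the striatum-rich and 3.74 ± 0.85 FPKM in the striatum-poor libraries and was not called.

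The list of progenitor genes had a lower median, 0.54, and 4 of 8 were called higher, beside 11.7% of all genes. *Lhfpl3*, *Gpr17*, a receptor of committed precursors, *Bmp4* and the proteoglycan gene *Vcan* rose by 0.91, 0.90, 0.82 and 0.69 on the log2 scale. *Pdgfra*, the receptor that marks progenitors, was at 15.3 ± 4.24 against 11.5 ± 2.93 FPKM (log2 difference 0.32, adjusted p = 0.162 in limma) and *C1ql1* at 16.0 ± 7.15 against 12.3 ± 1.53 FPKM. Whether the progenitor list differed from the mature lists was not tested.

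**Figure D5:**
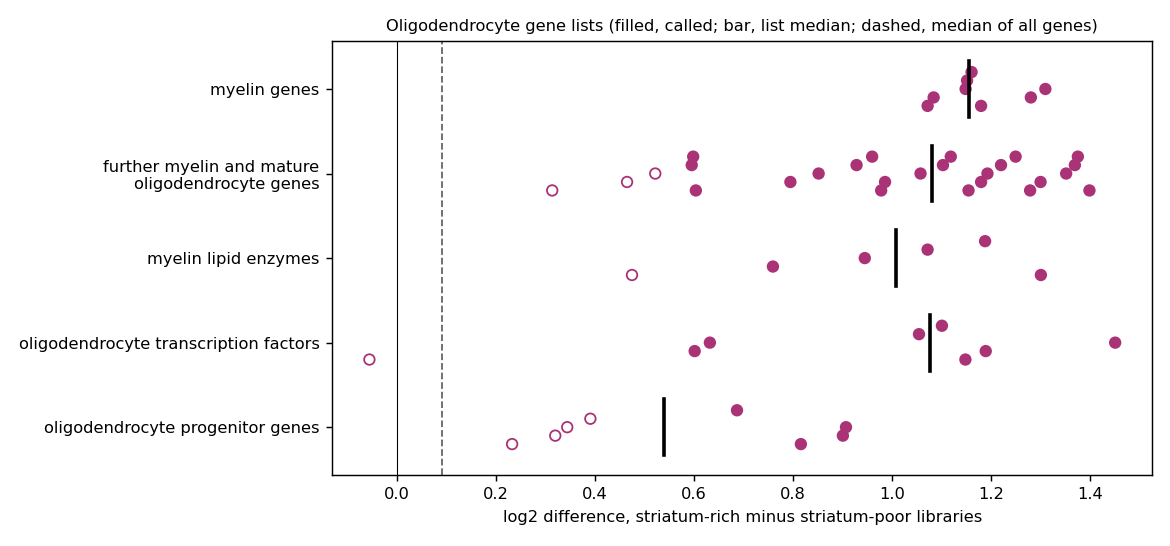
Log2 difference between striatum-rich and striatum-poor libraries (horizontal axis) for each tested gene of the myelin genes and 4 further lists, with filled points called, a bar at each list's median and a dashed line at the median of all genes, 0.09. The medians of the myelin, further myelin, lipid enzyme and transcription factor lists lie at 1.01 to 1.16 and that of the progenitor list at 0.54.

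In the treatment comparisons these further lists gave few calls. None of the 26 further myelin genes tested was called in PTZ against Con., in Q808 against PTZ or in Q808 against Con., and none of the 8 transcription factors was. *Aspa* was called in PTZ against Con., where 2.53% of all tested genes were called. *Pdgfra* and *Cspg4* were called in Q808 against Con., where 3.46% were.

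Among the genes whose pattern was most like the mean of the 8 myelin genes were *Csrp1* (Pearson's r = 0.998), *Lpar1* (0.997), *Pde8a* (0.996) and *Ano4* (0.996), out of 12555 other genes whose FPKM averaged 1 or more. These correlations are over 8 libraries that fall into 2 sets, and they describe these libraries only. *Csrp1*, a LIM-domain protein gene, was at 171, 123 and 264 FPKM in Con., at 183, 143 and 252 FPKM in PTZ and at 381 and 160 FPKM in Q808. It had Q808-1 highest and Con.-2 lowest, as the 8 myelin genes did. Each of the 8 had an r of 0.964 (*Mal*) to 0.995 (*Mog*) with the mean of the other 7.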

How the data were processed

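Polyadenylated RNA of the hippocampus was sequenced on a BGI T7 instrument. Per the study's methods, the FPKM per gene that the authors deposited came from Cufflinks, run on reads cleaned with Trimmomatic. The submitters' processing notes also name HISAT2, Bowtie2, StringTie, SAMtools, HTSeq and DESeq, and the genome build is not given in the sources used here. The files used here hold FPKM and no counts, so they do not give the depth behind a value, and its precision is given by the spread between rats. FPKM is a share of the library, so a rise of abundant genes lowers the rest.

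Genes were matched by GeneID to the RefSeq table of GRCr8, used for names, which named 20633 of 22601. Values were tested as log2(FPKM + 0.1), with a filter on a mean FPKM of at least 0.1, by limma 3.58.1 (empirical Bayes with a trend, R 4.3.3). Fold changes are therefore on the log2(FPKM + 0.1) scale, which understates those of low genes. In the main fits each treatment comparison used its own 2 groups, and the sets of libraries 1 fit of all 8 with treatment group as a term. The alternatives with a covariate were fitted on all 8 libraries. Calls follow the thresholds of the study, an unadjusted p under 0.05 and 1.5-fold, with Benjamini-Hochberg adjusted p over all genes beside them. The division into sets was made at the widest gap of the striatum list. The members and all lists were chosen with earlier results of these data known.

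Named genes were the 8 members, in each further list up to 4 called genes with the largest difference between the sets and the 2 not called with the highest mean FPKM, and the 5 genes most like the members' mean. *Olig2*, *Cspg4* and the other genes named from the treatment comparisons were chosen after their values were seen. *Trf* was listed but not found, and *Tmem125* was below the filter. Some genes that the rule or the lists name are not reported here.

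The deviations of same-numbered Con. and PTZ libraries from their group means correlated at 0.21, 0.30 and 0.42 across genes. Library 3 is striatum-rich in both groups, so the sets alone can give such correlations. They do not show that the rats were paired, and the block is given as an alternative only. With replicate number as a block, none of the 8 genes was called in PTZ against Con., and 616 of all genes were, compared with 395. For Q808 only 2 pairs could be formed, at -0.30 and 0.32 with PTZ and at -0.38 and 0.53 with Con., and the numbers were not taken as pairs. Spearman correlations between libraries were 0.940 to 0.988. Tables and figures were made with pandas 2.3.3, numpy 2.4.6 and matplotlib 3.10.9 in Python 3.11.15.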

Additional observations from a re-analysis of the deposited data

How the results depend on the processing

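Between the striatum-rich and striatum-poor libraries, all 8 genes were called as higher under all 17 alternatives, at log2 differences of 0.87 to 1.53. The alternatives were other pseudocounts, filters, scalings, thresholds, a fit without the trend or the treatment term, and leaving out each library. The number with an adjusted p under 0.05 was 8 except without Q808-1 or Q808-2 (5 each) and without Con.-2, Con.-3 or PTZ-2 (7 each). In PTZ against Con. none of the 8 was called under any of 19 alternatives. In the Q808 comparisons the count of 0 moved under the replicate block, to 1 against PTZ and 4 against Con. (12.1% and 6.9% of all genes), and with the striatum list mean as a covariate, to 1 against Con. (*Mobp*; 6.15% of all genes). Leaving out 1 library gave counts of 0 to 6 against PTZ and 0 to 2 against Con., the higher ones without Q808-2 (8.34% and 11.5% of all genes). The block changed no other call among the 8 genes, *Aspa* and *Olig2*. Only 2 pairs enter it for Q808, without PTZ-3 or Con.-3. It rests there on 1 residual degree of freedom per gene before limma's shrinkage.

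Directions within the spread turned as follows. In PTZ against Con., quantile normalization gave -0.061 for *Cnp*, -0.039 for *Cldn11* and -0.088 for *Mal*, while *Opalin* came to 0.020 under median ratio scaling and 0.10 with the striatum list mean as a covariate. Among striatum-poor libraries only, Q808 against PTZ gave -0.13 for *Mbp*, -0.16 for *Mag*, -0.12 for *Cnp*, -0.14 for *Cldn11* and -0.093 for *Mal*, and Q808 against Con. gave -0.016 for *Cnp* and -0.049 for *Cldn11*.

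Leaving out 1 library at a time gave these ranges of log2 differences. In PTZ against Con. they were -0.23 to 0.48 for *Mbp*, -0.28 to 0.47 for *Mog*, -0.26 to 0.50 for *Mag*, -0.25 to 0.40 for *Cnp*, -0.27 to 0.47 for *Mobp*, -0.27 to 0.37 for *Cldn11*, -0.31 to 0.40 for *Mal* and -0.46 to 0.40 for *Opalin*. The highest values came without Con.-3. In Q808 against PTZ they were -0.44 to 1.78 for *Mbp*, -0.22 to 1.36 for *Mog*, -0.40 to 1.24 for *Mag*, -0.42 to 1.21 for *Cnp*, -0.20 to 1.68 for *Mobp*, -0.42 to 1.19 for *Cldn11*, -0.39 to 0.84 for *Mal* and -0.18 to 1.15 for *Opalin*. In Q808 against Con. they were -0.30 to 1.92 for *Mbp*, -0.12 to 1.46 for *Mog*, -0.31 to 1.32 for *Mag*, -0.36 to 1.27 for *Cnp*, -0.080 to 1.79 for *Mobp*, -0.34 to 1.27 for *Cldn11*, -0.38 to 0.85 for *Mal* and -0.20 to 1.12 for *Opalin*. In both Q808 comparisons the lowest values came without Q808-1 and the highest without Q808-2, by construction of a group of 2 unlike libraries. The causes of the other changes were not tested.

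Counts over all genes moved more. In PTZ against Con. they ran from 191 (2-fold threshold) to 1530 (striatum-poor libraries only), in Q808 against PTZ from 132 (without PTZ-1) to 1894 (replicate block), in Q808 against Con. from 257 (2-fold threshold) to 1799 (without Q808-2), and between the sets from 1387 (2-fold threshold) to 3277 (without Con.-3). Depth, which the files used here do not give, limits what can be said of genes near 0.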

Other observations

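*Aspa*, the gene of aspartoacylase, an enzyme of oligodendrocytes that supplies acetate for lipid synthesis, was the only gene of the 4 further lists called in PTZ against Con. It was at 8.14, 6.66 and 10.6 FPKM in the Con. group, at 15.7, 14.5 and 13.3 FPKM in the PTZ group and at 23.7 and 9.66 FPKM in the Q808 group. Every PTZ library was above every Con. library, at 14.5 ± 1.18 against 8.46 ± 1.98 FPKM (SD, n = 3 each). Con. and PTZ libraries did not overlap, in either direction, in 9.15% of all tested genes, and 2.53% were called. The log2 difference was 0.79 ± 0.20 (SE), with an adjusted p = 0.999 in limma, so it did not pass the correction over all genes. It was called under every alternative except the 2-fold threshold, at 0.63 to 1.02 on the log2 scale, and adjusted p ranged from 0.0521 to 1.00. The highest value was among the striatum-poor libraries. With the mean of the 8 myelin genes as a covariate, an alternative added after seeing the data and fitted on all libraries, it was 0.76 (adjusted p = 0.709 in limma). The 8 myelin genes, by contrast, overlapped between these groups; the difference between *Aspa* and the 8 was not itself tested beyond that covariate.

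*Olig2*, the transcription factor that specifies oligodendrocytes, was at 16.6, 12.6 and 25.6 FPKM in the Con. group, at 24.8, 23.9 and 24.5 FPKM in the PTZ group and at 53.4 and 23.0 FPKM in the Q808 group. It was not called in PTZ against Con. (log2 difference 0.48, adjusted p = 0.999 in limma). Con.-3, a striatum-rich library, was above the PTZ libraries and the other 2 Con. libraries were below them. It was called without Con.-3 and among striatum-poor libraries (0.75 in both, adjusted p = 0.638 and 0.109 in limma), and in no other alternative. Of the 15593 tested genes, 639 and 1530 were called in these fits, compared with 395 in the main fit.

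*Pdgfra*, the growth factor receptor of progenitors that fibroblasts of vessels and meninges also express, was at 9.87, 10.04 and 10.9 FPKM in the Con. group, at 12.1, 9.13 and 15.6 FPKM in the PTZ group and at 19.4 and 16.4 FPKM in the Q808 group. Both Q808 libraries, striatum-rich and striatum-poor alike, were above all others. How many of all genes share that order was not counted, and 3.46% of all tested genes were called in Q808 against Con. In Q808 against Con. the log2 difference was 0.79 (adjusted p = 0.901 in limma). *Cspg4*, the NG2 proteoglycan of progenitors and pericytes, was at 3.37, 3.53 and 3.89 FPKM in the Con. group, at 4.33, 3.52 and 4.88 FPKM in the PTZ group and at 8.02 and 4.60 FPKM in the Q808 group, so that PTZ-3 was above Q808-2, with a log2 difference of 0.74 (adjusted p = 0.901). The meningeal list had its highest mean, 2.15, in Q808-2, and 2 of the 4 endothelial genes were called higher in Q808 against Con. The part of these cells in the values was not tested.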
